A study of Arabidopsis thaliana with 12 samples.

Results

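Whether the response of flower buds to heat differed between bzip17 mutant and wild-type (WT) Arabidopsis thaliana was tested gene by gene, as the log2 heat change in bzip17 (38 °C over 22 °C) minus the log2 heat change in WT. A gene was taken when its FPKM (fragments per kilobase of transcript, scaled by library size) reached 1 in 3 libraries or more, which gave 20715 of the 33610 genes counted. A positive difference therefore means a greater log2 heat change in bzip17, and a negative one a smaller log2 heat change. The 12 libraries formed 4 groups of 3 biological replicates: bzip17 held at 38 °C for 6 h, bzip17 kept at 22 °C, WT held at 38 °C for 6 h and WT kept at 22 °C. Plants were of the Col-0 background, bzip17 was 1 T-DNA insertion line (SALK_104326), and each replicate pooled unopened buds (stages 1 to 12) of 8 plants. A bud pool holds sepals, petals, anthers with pollen and carpels together, so fewer cells of one type and less RNA per cell cannot be told apart in any value given here.

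bZIP17 is a transcription factor that is anchored in the membrane of the endoplasmic reticulum (ER). When misfolded proteins accumulate there, for example under heat or salt stress, it moves to the Golgi, is cut by site proteases, and its released part enters the nucleus and activates stress genes. The unfolded protein response (UPR) raises chaperones, folding enzymes and degradation factors of the ER, through its relative bZIP28 and through the IRE1 and bZIP60 branch. The study names bZIP28 and bZIP60 as the major factors of this response and leaves the part of bZIP17 in it open. Cytosolic heat shock proteins are mainly under heat stress transcription factors (HSFs), which act outside the ER.

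Library totals ran from 38584506 to 71779333 counts. The share on ribosomal RNA (rRNA) loci ran from 1.43 to 64.8% and was over 10% in 4 libraries, namely replicate 1 of bzip17 at 22 °C, replicate 1 of WT at 38 °C and replicates 2 and 3 of WT at 22 °C. Counts were therefore scaled by the trimmed mean of M values (TMM), and levels are given as CPM, the counts relative to the scaled library size. Fits without these 4 rRNA-rich libraries kept replicate 1 as the only WT library at 22 °C. Their values rest on that 1 library for the group, and the part of rRNA in any change was not tested. The 8 floral organ identity markers LFY, AP1, AP3, PI, AG, SEP1, SEP2 and SEP3 were counted in all 12 libraries, at 1.15 to 250 CPM.

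No gene passed the test of the difference. By the quasi-likelihood test of edgeR, with p values adjusted after Benjamini and Hochberg, 0 of 20715 genes had a greater log2 heat change in bzip17 (0%) and 0 had a smaller one (0%) at an adjusted p under 0.05, and the smallest adjusted p was 0.9996. This holds for every gene named below. The edgeR difference of a single gene is therefore given with its standard error (SE) and 95% interval. Genes with a group at or near 0 counts are the exception. Those called genes of small p have an unadjusted p under 0.05. At an unadjusted p under 0.05 there were 428 genes with a positive difference (2.07%) and 467 with a negative one (2.25%), 895 in all (4.32%). With no true difference in any gene, a share of about 0.05 would fall under this cut-off. The share found was not above that, so a small p alone does not mark a gene as different. DESeq2 called 6 genes at an adjusted p under 0.05 (0.029%), 3 in each direction, and limma-voom called 0, with 888 at an unadjusted p under 0.05. In the same fit, heat raised 1259 genes (6.08%) and lowered 1335 (6.44%) in bzip17, and raised 1325 (6.4%) and lowered 1333 (6.43%) in WT. A heat call needed a change of over 2-fold as well as an adjusted p under 0.05.

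The heat changes of both genotypes ran along the line of equal change. Of 3561 genes called for heat in either genotype, 3495 had a heat change of the same sign in both, and across 20616 genes with counts in every group the heat changes correlated at a Pearson r of 0.836. Genes are not independent replicates, and this value is a description. The median difference over all genes was -0.055 log2.

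**Figure D1:**
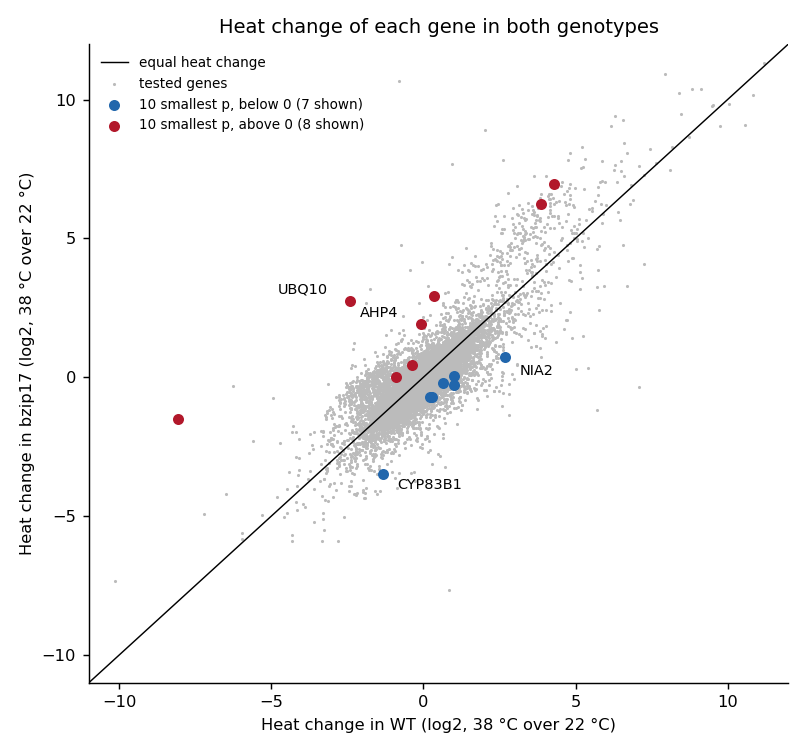
Log2 heat change (38 °C over 22 °C) in bzip17 (vertical axis) against that in WT (horizontal axis) for the 20616 tested genes with counts in every group, 1 point a gene, with the line of equal change. Coloured points are the genes with the smallest unadjusted p in each direction that have counts in every group. Most genes lie near the line, and 0 passed an adjusted p under 0.05.

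How small a difference could these libraries show? The SE of the difference had a median of 0.327 log2, and the 95% interval reached a median of 0.713 log2 to either side of the estimate. For 10541 genes (50.89% of those tested) the whole interval lay within 2-fold in either direction, and for 16714 (80.69%) it lay within 4-fold. The estimate itself was beyond 2-fold for 1703 genes (8.22%). A missed threshold therefore does not show equal heat responses, and for the genes below the interval is given unless a group was at or near 0 counts.

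In the genes of small p the genotype difference was more often the larger one at 22 °C than at 38 °C. The difference of heat changes equals the genotype difference at 38 °C minus that at 22 °C. Among the 874 genes with an unadjusted p under 0.05 and counts in every group, the genotype difference was larger in size at 22 °C for 596 (68.19%), beside 58.21% of all genes with counts in every group. The median size of the genotype difference was 0.166 log2 at 38 °C and 0.21 log2 at 22 °C. By the rule used for heat calls, 1 gene was higher (0.00483%) and 2 were lower (0.00965%) in bzip17 than in WT at 38 °C, and 0 were higher (0%) and 2 lower (0.00965%) at 22 °C. The 2 lower at each temperature were bZIP17, the mutated gene itself, and AT3G42658.1 (-5.49 log2 at 38 °C and -5.32 log2 at 22 °C). AT3G42658.1 was named after its values were seen. The 1 higher gene was AT4G10955, whose counts are uncertain for the reason given below. At an unadjusted p under 0.05 there were 917 genes at 38 °C and 2028 at 22 °C. The rRNA-rich libraries were mostly at 22 °C. They were replicate 1 of bzip17 (20.7% rRNA) and replicates 2 and 3 of WT (15.1 and 64.8%), beside replicate 1 of WT at 38 °C (19.0%). The part of rRNA in the larger genotype difference at 22 °C was not tested.

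The mutated gene itself was low in all bzip17 libraries, yet its remaining transcript was counted at both temperatures. bZIP17 (BZIP17, AT2G40950, chromosome 2, 17087620 to 17090424 on TAIR10) had 10.3, 8.22 and 9.39 CPM at 38 °C, beside 4.04, 5.74 and 3.499 CPM at 22 °C, in bzip17. WT levels of BZIP17 were 45.2, 51.1 and 49.3 CPM at 38 °C, beside 36.8, 31.7 and 45.1 CPM at 22 °C. All 6 bzip17 libraries were below all 6 WT libraries. The genotype difference was -2.38 log2 at 38 °C (adjusted p = 0.000678) and -3.10 log2 at 22 °C (adjusted p = 0.00011). The remaining bZIP17 transcript rose with heat in bzip17 by 1.07 log2, beside 0.36 log2 in WT, which did not pass, and the difference was 0.72 log2 (SE 0.27, 95% interval 0.12 to 1.31).

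Among the relatives, BZIP28, which is activated in a similar way, had 35.9, 50.3 and 48.6 CPM at 38 °C, beside 20.9, 18.8 and 22.3 CPM at 22 °C, in bzip17. WT levels of BZIP28 were 35.2, 43.3 and 34.3 CPM at 38 °C, beside 26.2, 23.7 and 25.8 CPM at 22 °C. The 3 bzip17 libraries at 38 °C were above all of those at 22 °C, and the difference of heat changes was 0.54 log2 (SE 0.22, 95% interval 0.07 to 1.02). BZIP60, whose mRNA is spliced by IRE1, had a difference of -0.17 log2 (SE 0.26, 95% interval -0.73 to 0.39). BZIP49, the third membrane-anchored member, did not reach the expression limit in 3 libraries and was counted 0 to 102 times a library.

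The genes followed by RT-qPCR in the study were CNX1, SDF2, SHD, ATERDJ3B, HB-7 and P5CS1, picked there among genes bound by bZIP17 in seedlings. Their median difference was -0.03 log2, with median heat changes of 0.76 log2 in bzip17 and 0.71 log2 in WT. 4 of the 6 intervals lay within 2-fold. The promoters of SDF2, SHD and TIN1, an ER stress gene described with the UPR below, are shown because they carry elements described in promoters of ER stress genes. Each is the 250 bases before the start of the gene in the RefSeq annotation of TAIR10.1, read 5′ to 3′ on the strand of the gene, with matches to the G-box (CACGTG) and to the core of the ER stress response element (CCACG, either strand) in capitals.
SDF2 (chr2:10683868-10684117, + strand): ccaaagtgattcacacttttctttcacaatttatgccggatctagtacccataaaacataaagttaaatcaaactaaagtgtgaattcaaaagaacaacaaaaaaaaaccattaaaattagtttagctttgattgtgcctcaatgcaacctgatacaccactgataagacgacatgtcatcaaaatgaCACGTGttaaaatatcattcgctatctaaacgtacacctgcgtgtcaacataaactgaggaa
SHD (chr4:12556059-12556308, - strand): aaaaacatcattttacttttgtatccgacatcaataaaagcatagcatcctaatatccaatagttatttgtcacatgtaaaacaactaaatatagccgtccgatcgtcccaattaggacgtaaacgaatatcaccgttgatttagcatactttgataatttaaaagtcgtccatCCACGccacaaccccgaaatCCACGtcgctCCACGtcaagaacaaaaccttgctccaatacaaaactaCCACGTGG
TIN1 (chr5:25784154-25784403, + strand): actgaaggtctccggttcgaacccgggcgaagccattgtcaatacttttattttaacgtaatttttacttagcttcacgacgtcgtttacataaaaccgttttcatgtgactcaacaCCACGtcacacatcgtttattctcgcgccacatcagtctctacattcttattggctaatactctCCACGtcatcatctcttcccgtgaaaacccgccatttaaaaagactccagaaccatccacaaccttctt
SDF2 held the G-box from 62 to 57 bases before the start. SHD held it from 7 to 2 bases before the start, inside a run where 2 of its 5 core matches overlap it, and TIN1 held 2 core matches and no G-box. CNX1, ATERDJ3B, HB-7 and P5CS1 had neither string in these 250 bases. Of 20050 tested genes with a promoter, 7.33% held the G-box, 15.5% the core, 0.424% a heat shock element and 0.0748% the ERSE-II element (ATTGG and CCACG with 1 base between them). Of the 48 UPR genes tested, 27.1% held the G-box and 35.4% the core, and 0 held ERSE-II. A match is a description and not a binding site.

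SDF2, a subunit of an ER chaperone complex with ERDJ3B, had 129, 122 and 115 CPM at 38 °C, beside 63.4, 58.4 and 77.6 CPM at 22 °C, in bzip17. WT levels of SDF2 were 129, 157 and 147 CPM at 38 °C, beside 76.6, 92.8 and 123 CPM at 22 °C. The libraries at 38 °C were above those at 22 °C in each genotype, although replicate 3 of WT at 22 °C came close to the lowest WT library at 38 °C. The difference was 0.30 log2 (SE 0.25, 95% interval -0.24 to 0.84). SHD, the ER member of the HSP90 family, had 681, 694 and 827 CPM at 38 °C, beside 429.8, 433 and 400.3 CPM at 22 °C, in bzip17. WT levels of SHD were 837, 924 and 765 CPM at 38 °C, beside 447, 516 and 575 CPM at 22 °C. Groups by temperature did not overlap in either genotype, and the difference was 0.09 log2 (SE 0.22, 95% interval -0.40 to 0.57). CNX1, the ER lectin chaperone calnexin, had 536, 489 and 587 CPM at 38 °C, beside 316, 283 and 348 CPM at 22 °C, in bzip17. WT levels of CNX1 were 579, 639 and 560.0 CPM at 38 °C, beside 316, 342 and 428 CPM at 22 °C. Its difference was 0.06 log2 (SE 0.22, 95% interval -0.43 to 0.55). ATERDJ3B, the J-domain partner of the ER Hsp70 BiP, had 143, 140.0 and 153 CPM at 38 °C, beside 87.0, 72.9 and 101 CPM at 22 °C, in bzip17. WT levels of ATERDJ3B were 192, 195 and 168 CPM at 38 °C, beside 85.5, 105 and 113 CPM at 22 °C, and its difference was -0.13 log2 (SE 0.21, 95% interval -0.59 to 0.34). For these 4 ER genes the estimate lay between -0.13 and 0.30 log2. For SDF2, SHD and CNX1 it turned negative without the libraries of over 10% rRNA, at -0.14, -0.09 and -0.14 log2. That fit kept only replicate 1 of WT at 22 °C.

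The other RT-qPCR genes code for proteins outside the ER. HB-7, a homeodomain transcription factor of the abscisic acid response, had 4.36, 6.81 and 11.4 CPM at 38 °C, beside 6.25, 4.35 and 12.0 CPM at 22 °C, in bzip17. WT levels of HB-7 were 11.7, 6.88 and 11.0 CPM at 38 °C, beside 7.30, 6.42 and 4.097 CPM at 22 °C. Its libraries overlapped between all 4 groups, and the difference was -0.73 log2 (SE 0.60, 95% interval -2.04 to 0.58). P5CS1, which makes proline from glutamate under drought and salt, had 99.2, 92.5 and 86.9 CPM at 38 °C, beside 85.0, 98.3 and 95.4 CPM at 22 °C, in bzip17. WT levels of P5CS1 were 151, 118 and 90.8 CPM at 38 °C, beside 74.8, 76.9 and 82.5 CPM at 22 °C. The bzip17 libraries overlapped between temperatures, whereas the WT libraries at 38 °C were above those at 22 °C, with replicate 1 the highest. The difference was -0.62 log2 (SE 0.23, 95% interval -1.13 to -0.11). It was -0.40 when replicate 1 of heat-stressed WT was left out, and -0.52 without the rRNA-rich libraries. The coordinates of P5CS1 overlap AT2G39795, and no source used here says whether counting kept strand, so its counts are uncertain.

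**Figure D2:**
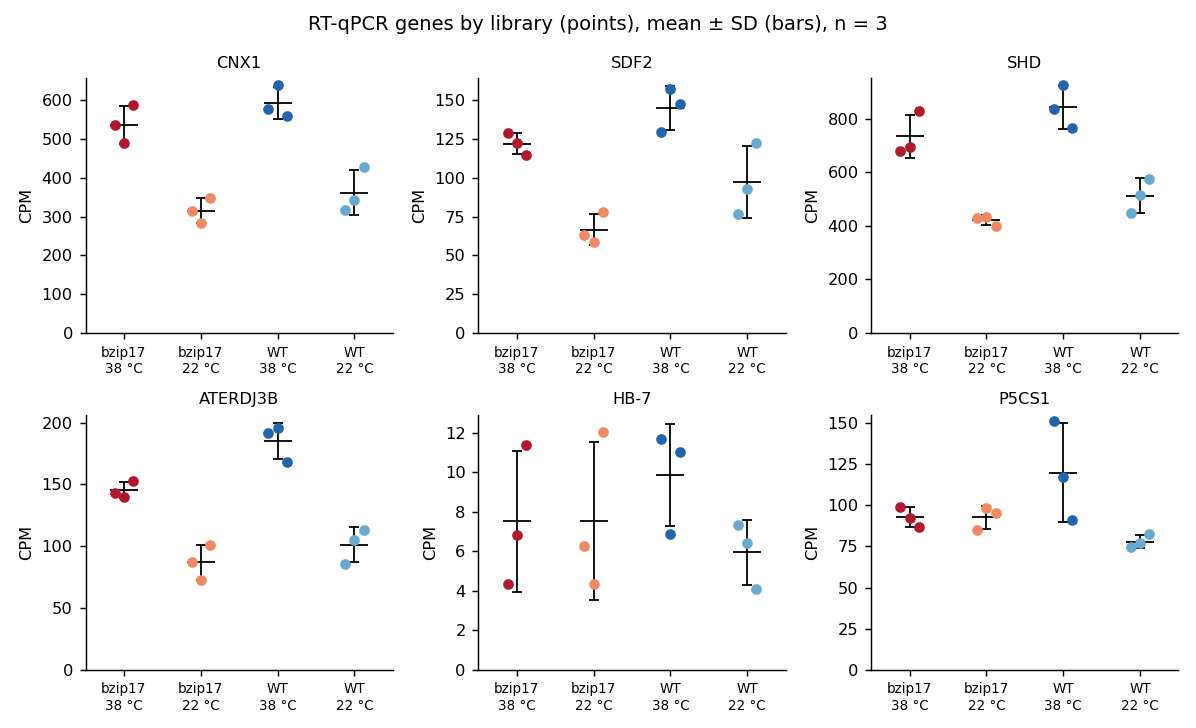
Level (CPM) of the 6 RT-qPCR genes in each library, with bzip17 at 38 °C, bzip17 at 22 °C, WT at 38 °C and WT at 22 °C from left to right. Points are libraries and bars the mean ± SD (n = 3). CNX1, SDF2, SHD and ATERDJ3B are higher at 38 °C than at 22 °C in every library of both genotypes, and P5CS1 averaged 92.9 and 92.9 CPM in bzip17 at 38 and 22 °C, against 119.8 and 78.0 CPM in WT.

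Of 48 UPR genes tested, 0 passed, 3 had an unadjusted p under 0.05 above 0 and 1 below 0 (8.33%, beside 4.32% of all genes), and the median difference was 0.10 log2 beside -0.05 over all genes. Their median heat change was 0.63 log2 in bzip17 and 0.49 log2 in WT, and heat raised 13 of 48 in bzip17 and 8 of 48 in WT by the 2-fold rule, beside 6.08% and 6.4% of all genes. The interval lay within 2-fold for 40 of 48 (83.3%), beside 50.89% of all genes. The 3 genes of small p above 0 were BZIP17, which is the mutated gene itself, BZIP28 and TIN1. The list without BZIP17 was not tested.

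By role, the 10 ER chaperones of the Hsp70, Hsp90 and J-domain kinds had differences of -0.27 to 0.30 log2. BIP2, the ER Hsp70, had 974, 989.6 and 1025 CPM at 38 °C, beside 405, 334 and 452 CPM at 22 °C, in bzip17. WT levels of BIP2 were 1136, 1216 and 969.8 CPM at 38 °C, beside 422, 452 and 449 CPM at 22 °C. In both genotypes the temperatures did not overlap, and the difference was -0.00 log2 (SE 0.23, 95% interval -0.50 to 0.50). BIP1 and BIP2 are near-identical copies, so their reads could be shared. The 6 calnexins, calreticulins and folding sensors had -0.12 to 0.41 log2, and the 8 ER-associated degradation genes -0.17 to 0.28 log2, with all 14 intervals of these groups within 2-fold.

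Among 10 disulfide isomerases and oxidases the range was -0.60 to 0.26 log2, and the lowest was PDIL2-2, an ER protein disulfide isomerase. It had 29.1, 29.3 and 29.9 CPM at 38 °C, beside 11.6, 8.87 and 15.3 CPM at 22 °C, in bzip17. WT levels of PDIL2-2 were 59.6, 60.5 and 61.3 CPM at 38 °C, beside 15.8, 16.3 and 16.4 CPM at 22 °C. The bzip17 libraries at 38 °C were below all of the WT libraries at 38 °C and above all of those at 22 °C. The difference was -0.60 log2 (SE 0.23, 95% interval -1.11 to -0.09). It was -0.38 without replicate 3 of bzip17 at 22 °C, and -0.66 without the rRNA-rich libraries. The genotype difference at 38 °C was -1.04 log2 (adjusted p = 0.0958). TIN1 (AT5G64510), a gene induced by tunicamycin, which blocks protein glycosylation in the ER, had the smallest p of the list and went the other way, with 31.9, 45.0 and 51.2 CPM at 38 °C, beside 3.74, 5.84 and 9.90 CPM at 22 °C, in bzip17. WT levels of TIN1 were 23.9, 18.3 and 13.8 CPM at 38 °C, beside 6.17, 14.6 and 6.50 CPM at 22 °C. The 3 bzip17 libraries at 38 °C were the highest of the 12, and the difference was 1.68 log2 (SE 0.56, 95% interval 0.45 to 2.90). Without the rRNA-rich libraries it was 1.07 log2. PDIL2-2 was named after its values were seen.

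Of 17 small heat shock proteins, 16 rose in bzip17 and 16 in WT, beside 6.08% and 6.4% of all genes, with median heat changes of 7.30 and 7.24 log2. Their median difference was 0.09 log2, but 0 of 17 intervals lay within 2-fold, and the median ran from -0.39 without replicate 2 of bzip17 at 38 °C to 1.36 without replicate 2 of WT at 38 °C. AT5G37670, an HSP20-like chaperone, had the smallest p, with 13.7, 22.8 and 19.0 CPM at 38 °C, beside 0.404, 0.808 and 1.06 CPM at 22 °C, in bzip17. WT levels of AT5G37670 were 10.2, 15.1 and 11.2 CPM at 38 °C, beside 2.35, 1.33 and 1.04 CPM at 22 °C. Its difference was 1.67 log2 (SE 0.52, 95% interval 0.54 to 2.81). HSP101, the cytosolic disaggregase, had 89.9, 306 and 128 CPM at 38 °C, beside 9.99, 12.3 and 14.0 CPM at 22 °C, in bzip17. WT levels of HSP101 were 74.4, 287 and 71.9 CPM at 38 °C, beside 13.5, 13.7 and 12.0 CPM at 22 °C. Replicate 2 was the highest at 38 °C in each genotype, and the difference was 0.39 log2 (SE 0.74, 95% interval -1.23 to 2.01), from -0.295 to 1.37 without the same libraries. Its coordinates overlap AT1G74300.

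Of 31 genes of the HSP70, HSP90 and HSP100 families and their partners outside the ER, 19 rose in bzip17 and 15 in WT (beside the same 6.08% and 6.4%), the median heat change was 1.41 and 0.94 log2, and the median difference was 0.28 log2. Without the rRNA-rich libraries that median was -0.11. Hsp70-2, a cytosolic Hsp70, had the smallest p of them, at 0.71 log2 (SE 0.29, 95% interval 0.07 to 1.34), or 0.27 without the rRNA-rich libraries. Of 20 HSFs and coactivators, 9 rose in bzip17 and 7 in WT (beside 6.08% and 6.4% of all genes). Their median heat changes were 1.16 and 0.51 log2, and the median difference was 0.21. Of these 20, 2 had an unadjusted p under 0.05 above 0 and 1 below 0 (15%, beside 4.32% of all genes). HSFA2, which sustains the response to long heat, had a difference of 0.69 log2 (SE 1.09, 95% interval -1.68 to 3.07), from -0.07 without replicate 2 of bzip17 at 38 °C to 2.08 without replicate 2 of WT at 38 °C. HSFA8 had 12.5, 10.4 and 9.14 CPM at 38 °C, beside 11.9, 12.7 and 12.5 CPM at 22 °C, in bzip17. WT levels of HSFA8 were 15.1, 14.8 and 13.8 CPM at 38 °C, beside 9.04, 11.7 and 9.24 CPM at 22 °C. In bzip17 the temperatures overlapped and in WT all libraries at 38 °C were above those at 22 °C, and the difference was -0.75 log2 (SE 0.24, 95% interval -1.28 to -0.23). The class B factor HSFB2A, named after its values were seen, had 7.08, 16.1 and 15.3 CPM at 38 °C, beside 4.47, 2.84 and 5.45 CPM at 22 °C, in bzip17. WT levels of HSFB2A were 5.27, 4.74 and 4.503 CPM at 38 °C, beside 3.67, 2.91 and 5.40 CPM at 22 °C, and the difference was 1.30 log2 (SE 0.50, 95% interval 0.21 to 2.39).

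The gene with the smallest p had a negative difference. NIA2 (AT1G37130, chromosome 1, 14158527 to 14161938), the main nitrate reductase, had 25.9, 29.3 and 20.16 CPM at 38 °C, beside 16.0, 17.9 and 11.3 CPM at 22 °C, in bzip17. WT levels of NIA2 were 39.8, 65.5 and 44.2 CPM at 38 °C, beside 7.67, 6.46 and 9.17 CPM at 22 °C. Heat raised it in WT by 2.69 log2 (SE 0.25, adjusted p = 6.41e-05), and in bzip17 the heat change was 0.74 log2 (SE 0.24, adjusted p = 0.0375), under the 2-fold limit. At 38 °C all 3 bzip17 libraries were below the WT libraries, and at 22 °C all 3 were above them. The difference was -1.95 log2 (SE 0.34, 95% interval -2.69 to -1.21) by edgeR, with an adjusted p of 0.9996. DESeq2 gave -1.93 log2 with an adjusted p of 0.00148. It ranged from -2.12 to -1.70 when 1 library was left out, and was -2.03 without the rRNA-rich libraries. NIA2 is in the list of bZIP17-dependent genes of the study, which was chosen on these libraries.

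Other genes of nitrate reduction were chosen after these values were seen. NIR1, the nitrite reductase, had 34.9, 32.8 and 22.99 CPM at 38 °C, beside 22.8, 37.1 and 36.5 CPM at 22 °C, in bzip17. WT levels of NIR1 were 53.4, 126 and 46.3 CPM at 38 °C, beside 25.7, 22.1 and 27.4 CPM at 22 °C. Replicate 2 of WT at 38 °C, at 126 CPM, was far above the others, and the difference was -1.68 log2 (SE 0.48, 95% interval -2.72 to -0.63), or -1.08 without that library. NIA1, the second nitrate reductase gene, had 9.57, 6.79 and 9.37 CPM at 38 °C, beside 5.55, 3.87 and 10.7 CPM at 22 °C, in bzip17. WT levels of NIA1 were 11.6, 14.6 and 14.7 CPM at 38 °C, beside 5.32, 3.93 and 1.76 CPM at 22 °C, and the difference was -1.52 log2 (SE 0.57, 95% interval -2.76 to -0.27). It was -1.001 when replicate 3 of bzip17 at 22 °C was left out, and -1.23 without the rRNA-rich libraries.

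CYP83B1 (AT4G31500, chromosome 4, 15273471 to 15275310), a P450 enzyme of indole glucosinolate synthesis, had 3.64, 1.90 and 2.64 CPM at 38 °C, beside 35.0, 18.1 and 39.5 CPM at 22 °C, in bzip17. WT levels of CYP83B1 were 10.1, 12.2 and 9.84 CPM at 38 °C, beside 21.7, 34.4 and 25.1 CPM at 22 °C. Heat lowered it in both genotypes, with heat changes of -3.496 log2 in bzip17 and -1.34 log2 in WT, and at 38 °C all bzip17 libraries were below all WT libraries. The difference was -2.16 log2 (SE 0.43, 95% interval -3.11 to -1.21), and DESeq2 gave -2.15 log2 with an adjusted p of 0.0157. Leaving out 1 library moved it between -2.43 and -1.94.

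Several other genes of small p had narrow spreads. BGLU9, a beta-glucosidase, had 26.8, 27.4 and 23.8 CPM at 38 °C, beside 29.6, 29.2 and 31.0 CPM at 22 °C, in bzip17. WT levels of BGLU9 were 32.0, 30.4 and 33.4 CPM at 38 °C, beside 22.6, 18.7 and 19.9 CPM at 22 °C, and its difference was -0.85 log2 (SE 0.17, 95% interval -1.22 to -0.47). PDX1.1, an enzyme of vitamin B6 synthesis, had 28.2, 24.6 and 30.6 CPM at 38 °C, beside 50.1, 37.2 and 50.5 CPM at 22 °C, in bzip17. WT levels of PDX1.1 were 28.8, 28.6 and 33.3 CPM at 38 °C, beside 27.7, 24.2 and 22.7 CPM at 22 °C, and its difference was -1.004 log2 (SE 0.22, 95% interval -1.47 to -0.53). In BGLU9 the WT libraries at 22 °C stood below the other 3 groups, and in PDX1.1 the bzip17 libraries at 22 °C stood above them. UGT88A1, a glycosyltransferase, had 47.7, 46.2 and 58.1 CPM at 38 °C, beside 50.7, 43.3 and 53.2 CPM at 22 °C, in bzip17. WT levels of UGT88A1 were 48.9, 64.9 and 58.7 CPM at 38 °C, beside 29.5, 30.2 and 26.1 CPM at 22 °C, with the WT libraries at 22 °C the lowest and a difference of -0.96 log2 (SE 0.21, 95% interval -1.41 to -0.51). AAPT1, an aminoalcohol phosphotransferase of phospholipid synthesis, had 33.1, 36.0 and 30.3 CPM at 38 °C, beside 46.5, 58.3 and 57.6 CPM at 22 °C, in bzip17. WT levels of AAPT1 were 48.2, 55.5 and 44.8 CPM at 38 °C, beside 38.3, 48.4 and 41.8 CPM at 22 °C, and the difference was -0.92 log2 (SE 0.20, 95% interval -1.36 to -0.48). PGM (AT1G78050), whose coordinates overlap AT1G78060, had -1.31 log2 (SE 0.33, 95% interval -2.03 to -0.59). DESeq2 gave adjusted p values of 0.0941, 0.156, 0.146, 0.167 and 0.286 for BGLU9, PDX1.1, UGT88A1, AAPT1 and PGM.

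A further 3 genes of small p below 0 had a group without any count, so that only a bound can be given, with the empty group set to a floor of 3 counts per library. ILL5 (AT1G51780), a homologue of the amidohydrolases that free auxin from its amino acid conjugates, had 6.67, 4.78 and 5.65 CPM at 38 °C, beside 0.889, 0.352 and 0.636 CPM at 22 °C, in bzip17. WT levels of ILL5 were 6.86, 2.64 and 2.04 CPM at 38 °C, beside 0 counts at 22 °C. It was at least 36.8-fold higher at 38 °C than at 22 °C in WT, beside 9.11-fold in bzip17, and DESeq2 called it (adjusted p = 0.0288), while its log2(FPKM + 1) difference by limma-trend was 0.106, of the other sign. AT2G25770 had 1.43, 1.78 and 2.07 CPM at 38 °C, beside 0.700, 0.0829 and 0.463 CPM at 22 °C, in bzip17. WT levels of AT2G25770 were 1.32, 1.11 and 2.26 CPM at 38 °C, beside 0 counts at 22 °C. It was at least 14.96-fold higher at 38 °C in WT and 4.23-fold in bzip17. AT1G24147 had 0 counts at 38 °C, beside 3.15, 1.68 and 3.40 CPM at 22 °C, in bzip17. WT levels of AT1G24147 were 0.315, 0.214 and 0.570 CPM at 38 °C, beside 5.53, 7.72 and 3.19 CPM at 22 °C, and it was at least 58.9-fold lower at 38 °C in bzip17, beside 14.9-fold in WT.

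Among the genes of small p above 0, AHP4 (AT3G16360), a histidine phosphotransfer protein of cytokinin signalling, had 3.97, 5.29 and 3.53 CPM at 38 °C, beside 1.10, 1.41 and 0.853 CPM at 22 °C, in bzip17. WT levels of AHP4 were 5.71, 5.69 and 2.75 CPM at 38 °C, beside 4.66, 4.88 and 5.40 CPM at 22 °C. The bzip17 libraries at 22 °C were below the other 9, and the difference was 2.003 log2 (SE 0.48, 95% interval 0.96 to 3.05). CIPK1, a kinase that acts with calcineurin B-like calcium sensors, had 22.2, 27.9 and 27.2 CPM at 38 °C, beside 18.7, 18.3 and 19.2 CPM at 22 °C, in bzip17. WT levels of CIPK1 were 21.5, 16.0 and 18.6 CPM at 38 °C, beside 24.2, 25.2 and 23.02 CPM at 22 °C, and the difference was 0.83 log2 (SE 0.21, 95% interval 0.37 to 1.28). HHP2, a membrane protein related to heptahelical receptors, had 20.3, 23.01 and 25.2 CPM at 38 °C, beside 23.4, 22.2 and 22.7 CPM at 22 °C, in bzip17. WT levels of HHP2 were 22.2, 14.3 and 17.2 CPM at 38 °C, beside 31.9, 37.5 and 31.5 CPM at 22 °C, with the WT libraries at 22 °C above all others and a difference of 0.92 log2 (SE 0.24, 95% interval 0.40 to 1.43). Its coordinates overlap AT4G30845.

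AT1G05740 had 1.85, 1.61 and 2.12 CPM at 38 °C, beside 0 counts at 22 °C, in bzip17. WT levels of AT1G05740 were 1.30, 0.232 and 0.733 CPM at 38 °C, beside 0.504, 0.213 and 0 CPM at 22 °C. It was at least 29.98-fold higher at 38 °C in bzip17, beside 3.16-fold in WT. AT1G24110 had 3, 16 and 23 counts at 38 °C, beside 7, 49 and 55 at 22 °C, in bzip17. Its WT counts were 0, 1 and 0 at 38 °C, beside 63, 174 and 31 at 22 °C. With 1 count in a whole group, no fold is given for it.

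Other genes of small p were counted in some libraries and at or near 0 in others. AT1G53900 had 18.1, 17.56 and 15.6 CPM at 38 °C, beside 0 counts at 22 °C, in bzip17. WT levels of AT1G53900 were 16.8, 0 and 17.1 CPM at 38 °C, beside 11.6, 9.92 and 11.2 CPM at 22 °C. Its replicate 2 of WT at 38 °C was at 0 while replicates 1 and 3 were at 16.8 and 17.1 CPM. AT1G53880 covers 3417 bases, as does AT1G53900, and 0 of these bases differ between them in TAIR10.1, so reads of the pair cannot be told apart. Summed over the pair, levels were 36.4, 35.1 and 31.3 CPM at 38 °C, beside 13.0, 13.3 and 15.02 CPM at 22 °C, in bzip17, and 33.5, 18.3 and 34.3 CPM at 38 °C, beside 22.8, 28.5 and 21.8 CPM at 22 °C, in WT. DESeq2 called AT1G53900 (adjusted p = 0.0238).

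UBQ10, a polyubiquitin gene widely used as a reference in RT-qPCR, had 621, 67.1 and 787 CPM at 38 °C, beside 57.8, 77.1 and 84.0 CPM at 22 °C, in bzip17. WT levels of UBQ10 were 31.8, 71.8 and 49.9 CPM at 38 °C, beside 78.4, 96.7 and 645 CPM at 22 °C. Replicates 1 and 3 of bzip17 at 38 °C and replicate 3 of WT at 22 °C were at 621 CPM or more and the other 9 libraries at 96.7 CPM or less, and the difference was 5.17 log2 (SE 1.25, 95% interval 2.44 to 7.89). Leaving out replicate 3 of WT at 22 °C gave 3.51, and it was 2.98 without the rRNA-rich libraries. The lowest of the 12 reference genes was at -0.28 log2, and their median was 0.09.

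AT4G10955 had 20.6, 12.1 and 14.4 CPM in heat-stressed bzip17, and 0 counts in bzip17 at 22 °C, WT at 38 °C and WT at 22 °C. It was the 1 tested gene with counts in a single group. With 3 empty groups the quasi-likelihood test of edgeR gave it an adjusted p of 1, while DESeq2 (adjusted p = 5.94e-05) and limma-trend on log2(FPKM + 1) (adjusted p = 0.00341) called it. AT4G10960 (UGE5, a UDP-glucose epimerase) lies over the same coordinates, 6713557 to 6718550 on chromosome 4, and had 2.22, 1.32 and 3.45 CPM at 38 °C, beside 53.1, 6.61 and 14.1 CPM at 22 °C, in bzip17. WT levels of UGE5 were 24.7, 3.08 and 23.003 CPM at 38 °C, beside 46.7, 35.3 and 21.0 CPM at 22 °C. UGE5 was at 1.32 to 3.45 CPM in the group where AT4G10955 was counted. The sum of both was 13.4 to 22.8 CPM in bzip17 at 38 °C and 6.61 to 53.1 CPM in bzip17 at 22 °C, against 3.08 to 24.7 CPM in WT at 38 °C and 21.0 to 46.7 CPM in WT at 22 °C. Both genes lie on the minus strand, and no source used here says how reads of the shared span were assigned, so the counts of each are uncertain.

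**Figure D3:**
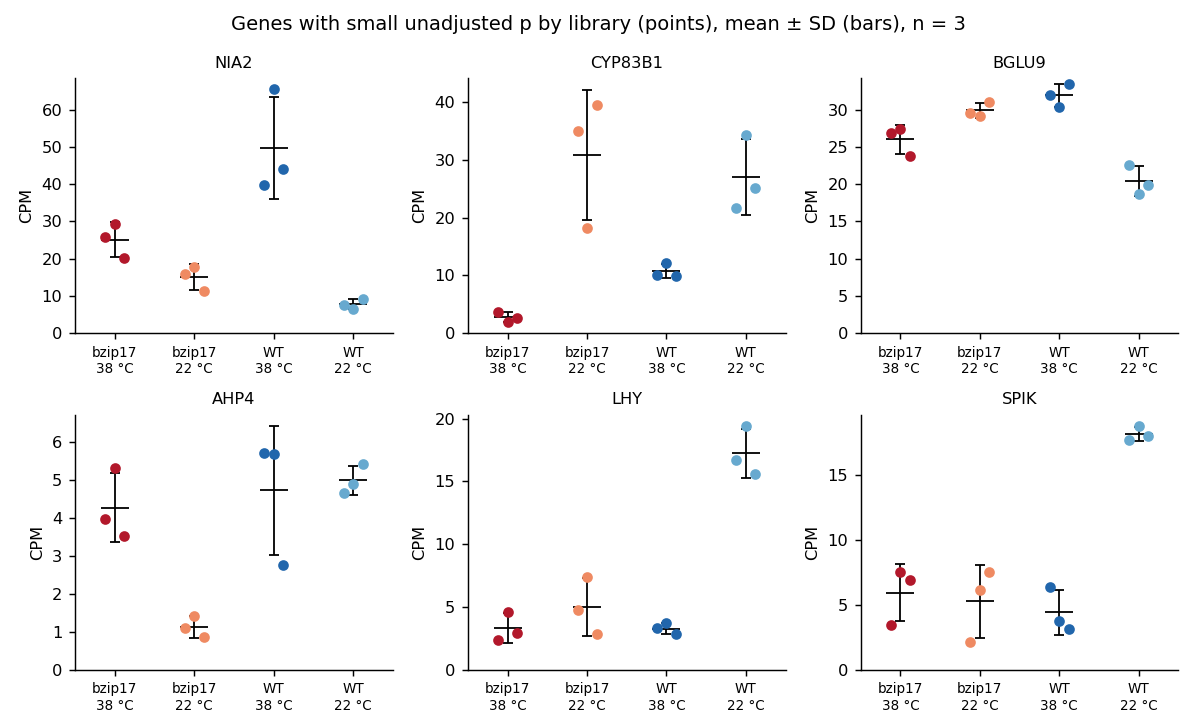
Level (CPM) of NIA2, CYP83B1, BGLU9, AHP4, LHY and SPIK in each library, with bzip17 at 38 °C, bzip17 at 22 °C, WT at 38 °C and WT at 22 °C from left to right. Points are libraries and bars the mean ± SD (n = 3). LHY and SPIK are highest in the 3 WT libraries at 22 °C, and NIA2 is highest in the 3 WT libraries at 38 °C.

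Late pollen and pollen tube genes had the largest median difference of the nuclear gene lists drawn up by function. Of 40 tested, 15 had an unadjusted p under 0.05 above 0 and 0 below 0 (37.5%, beside 4.32% of all genes), 35 estimates were above 0 (beside 43.3% of all genes), and the median difference was 1.38 log2. None passed the adjusted threshold. Their median heat change was 0.07 log2 in bzip17 and -1.23 log2 in WT, and heat raised 1 and lowered 0 in bzip17, against 0 raised and 13 lowered in WT (beside 6.43% of all genes lowered in WT). The median ran from 1.06 to 1.86 when 1 library was left out and was 1.68 without the rRNA-rich libraries. This and the other lists by function were drawn up with earlier results of these data known. Their shares beside those of all genes are therefore descriptions and not independent evidence.

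SPIK, a potassium channel of the pollen tube, had 3.41, 7.54 and 6.90 CPM at 38 °C, beside 2.13, 6.17 and 7.52 CPM at 22 °C, in bzip17. WT levels of SPIK were 6.402, 3.80 and 3.14 CPM at 38 °C, beside 17.77, 18.8 and 18.1 CPM at 22 °C. The WT libraries at 22 °C were more than 2-fold above the other 9, which overlapped, and the difference was 2.203 log2 (SE 0.62, 95% interval 0.86 to 3.55). MYB101, a pollen tube transcription factor, had 19.5, 34.8 and 37.2 CPM at 38 °C, beside 10.4, 14.6 and 18.9 CPM at 22 °C, in bzip17. WT levels of MYB101 were 30.9, 13.7 and 18.9 CPM at 38 °C, beside 28.9, 32.1 and 23.7 CPM at 22 °C, and the difference was 1.48 log2 (SE 0.46, 95% interval 0.48 to 2.48). CPK34, a calcium-dependent kinase of the pollen tube, had 0.448, 2.34 and 1.88 CPM at 38 °C, beside 1.10, 3.34 and 4.25 CPM at 22 °C, in bzip17. WT levels of CPK34 were 1.55, 1.50 and 0.795 CPM at 38 °C, beside 8.82, 9.19 and 7.48 CPM at 22 °C, and the difference was 1.82 log2 (SE 0.82, 95% interval 0.02 to 3.61). MYB101 and CPK34 were named after their values were seen. The summed level of the list was 816, 1941 and 2253 CPM at 38 °C, beside 1073, 1479 and 2013 CPM at 22 °C, in bzip17. The WT libraries had 2026, 1111 and 875 CPM at 38 °C, beside 3205, 3236 and 2351 CPM at 22 °C. The 3 WT libraries at 22 °C were the highest, although replicate 3 of them came close to replicate 3 of bzip17 at 38 °C. All 40 genes were counted in every group. These genes mark maturing pollen, whose amount depends on the age of the buds pooled, and the part of bud age in the difference was not tested.

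Markers of other anther and bud stages gave fewer genes of small p. Of 32 tapetum and pollen wall genes 0 had a p under 0.05, and their median difference was -0.43 log2, or 0.06 without the rRNA-rich libraries. Their summed level was 1679.5, 1542 and 2164 CPM at 38 °C, beside 2688, 964 and 2730 CPM at 22 °C, in bzip17. The WT libraries had 1655, 975 and 1857 CPM at 38 °C, beside 1809, 1509 and 1540.3 CPM at 22 °C. LAP6, an enzyme of sporopollenin synthesis, had the smallest p of them, at -0.83 log2 (SE 0.43, 95% interval -1.78 to 0.11). Of 20 meiosis genes 0 had a p under 0.05 (median 0.19), with MSH5, a crossover protein, at 0.53 log2 (SE 0.24, 95% interval -0.01 to 1.06). Of 20 floral identity genes 0 had a p under 0.05 (median -0.05), with CRC, a carpel and nectary gene, at 0.43 log2 (SE 0.39, 95% interval -0.42 to 1.29). Of 39 genes of mitosis, cytokinesis and DNA replication 34 estimates were above 0, beside 43.3% of all genes. Of the 39, 1 had a p under 0.05 (2.56%, beside 4.32% of all genes). It was AUR2, a mitotic kinase, at 0.70 log2 (SE 0.32, 95% interval 0.00 to 1.40). The median heat change of the 39 genes was -0.63 log2 in bzip17 and -1.003 log2 in WT, and the median difference of 0.27 was 0.03 without the rRNA-rich libraries.

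Nearly all estimates for photosynthesis genes were below 0, each by less than 2-fold. Of 20 light-harvesting antenna genes 20 estimates were below 0 and 3 had a p under 0.05, and of 40 nuclear genes of the photosystems, electron transport and the Calvin cycle 39 were below 0 and 9 had a p under 0.05 (22.5%, beside 2.25% of all genes below 0). Over all genes 56.7% of estimates were below 0. The medians were -0.33 and -0.41 log2, and without the rRNA-rich libraries -0.31 and -0.36. Neither list held a gene past the adjusted threshold. The heat changes were 0.08 log2 in bzip17 and 0.51 log2 in WT for the antenna genes and -0.31 log2 in bzip17 and 0.05 log2 in WT for the others.

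Lhca6, an antenna protein of photosystem I, had 30.5, 24.2 and 28.3 CPM at 38 °C, beside 26.1, 25.5 and 36.4 CPM at 22 °C, in bzip17. WT levels of Lhca6 were 28.3, 26.7 and 25.8 CPM at 38 °C, beside 19.0, 17.05 and 13.7 CPM at 22 °C. The WT libraries at 22 °C were below all others, and the difference was -0.78 log2 (SE 0.25, 95% interval -1.32 to -0.24). CAB3, a major chlorophyll a/b protein of photosystem II, had 722, 640.4 and 613 CPM at 38 °C, beside 699, 646 and 518 CPM at 22 °C, in bzip17. WT levels of CAB3 were 511, 577 and 553 CPM at 38 °C, beside 312, 348 and 337 CPM at 22 °C, and the difference was -0.63 log2 (SE 0.22, 95% interval -1.11 to -0.16). It belongs to a family of near-identical copies, so its reads may be shared. PETC, the Rieske protein of the cytochrome b6f complex, had 231, 207 and 212 CPM at 38 °C, beside 315, 288 and 330.1 CPM at 22 °C, in bzip17. WT levels of PETC were 199, 207 and 218 CPM at 38 °C, beside 209, 214 and 210.2 CPM at 22 °C. Here the bzip17 libraries at 22 °C were above the other 9, which overlapped, and the difference was -0.50 log2 (SE 0.17, 95% interval -0.87 to -0.14). RCA, which activates Rubisco, had 535, 419.9 and 593 CPM at 38 °C, beside 569.9, 447 and 661 CPM at 22 °C, in bzip17. WT levels of RCA were 353, 455 and 481 CPM at 38 °C, beside 292, 259 and 279.7 CPM at 22 °C, and the difference was -0.75 log2 (SE 0.27, 95% interval -1.34 to -0.16). In RCA all WT libraries at 22 °C were the lowest. CAB3 and RCA were named after their values were seen. The photosystem and Calvin cycle genes summed to 25928, 19461 and 24411 CPM at 38 °C, beside 31101, 22863 and 25794 CPM at 22 °C, in bzip17. In WT these sums were 19376, 19217 and 24344 CPM at 38 °C, beside 18894, 16898 and 19547 CPM at 22 °C. At 22 °C all 3 bzip17 libraries were above all 3 WT libraries, and at 38 °C the genotypes overlapped. Sepals are the green organ of the bud, and the part of their share in the pools was not tested.

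**Figure D4:**
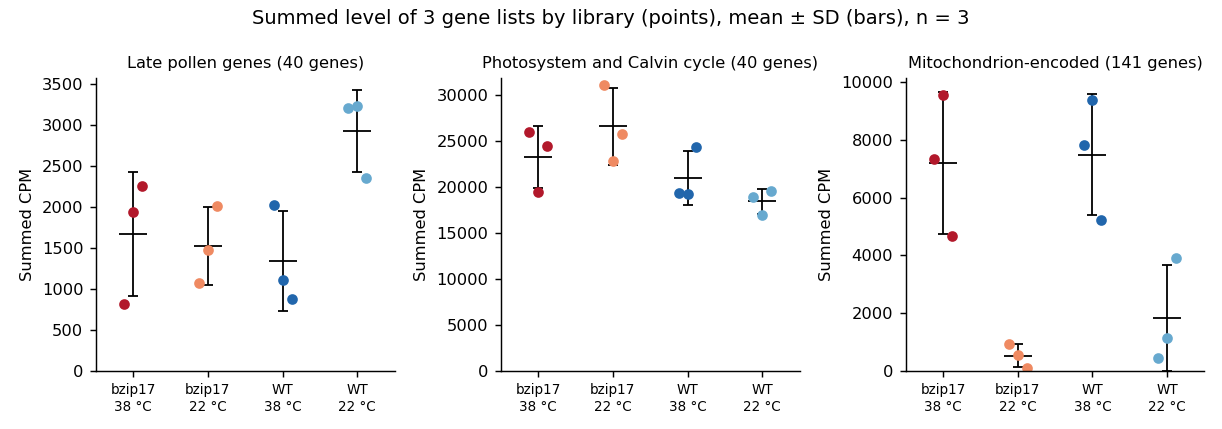
Summed CPM of late pollen genes, nuclear photosystem and Calvin cycle genes and mitochondrion-encoded genes in each library, with bzip17 at 38 °C, bzip17 at 22 °C, WT at 38 °C and WT at 22 °C from left to right. Points are libraries and bars the mean ± SD (n = 3). Late pollen genes are highest in WT at 22 °C, and mitochondrion-encoded genes in WT at 22 °C spread between 435 and 3922 CPM.

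Wax and cutin genes, which build the cuticle of the epidermis, had 26 of 27 estimates below 0, beside 56.7% of all genes. Of the 27, 1 had a p under 0.05 (3.70%, beside 4.32% of all genes). It was KCS1, a fatty acid elongation enzyme, at -0.86 log2 (SE 0.39, 95% interval -1.71 to -0.02). The median difference of the list, -0.47 log2, was 0.00 without the rRNA-rich libraries. It ran from -0.85 without replicate 2 of bzip17 at 22 °C to -0.14 without replicate 3 of that group. The summed level in bzip17 at 22 °C was 3429, 1392 and 4001 CPM, so replicate 2 stood apart.

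In a list of 45 salt, drought and abscisic acid genes, 3 had a p under 0.05 below 0 and 0 above 0 (6.67%, beside 4.32% of all genes in both directions and 2.25% below 0). The median was -0.21 log2, or -0.41 without replicate 2 of bzip17 at 22 °C. NAC019, a transcription factor of drought and jasmonate responses, had 22.0, 23.3 and 25.2 CPM at 38 °C, beside 24.8, 21.0 and 31.3 CPM at 22 °C, in bzip17. WT levels of NAC019 were 38.9, 27.7 and 27.2 CPM at 38 °C, beside 18.6, 16.6 and 24.6 CPM at 22 °C, and its difference was -0.78 log2 (SE 0.29, 95% interval -1.41 to -0.16). The 31 jasmonate genes had a median of -0.17, or -0.45 with replicate 2 of bzip17 at 22 °C left out. Leaving out replicate 2 of WT at 22 °C gave -0.05. Among the 31, 1 had a p under 0.05 (3.23%, beside 4.32% of all genes). This was JAZ10, a repressor of jasmonate response, at -0.89 log2 (SE 0.37, 95% interval -1.69 to -0.08). The 11 salicylic acid and defence genes had the largest negative median of the hand-written lists, at -0.79 log2, and 2 of them had a p under 0.05 below 0 (18.18%, beside 2.25% of all genes), with heat changes of -2.11 log2 in bzip17 and -1.02 log2 in WT. The median difference was -0.39 when replicate 2 of heat-stressed WT was left out. PBS3, an enzyme of salicylic acid synthesis, had 2.59, 3.90 and 3.95 CPM at 38 °C, beside 6.196, 9.53 and 12.9 CPM at 22 °C, in bzip17. WT levels of PBS3 were 3.86, 3.08 and 3.95 CPM at 38 °C, beside 4.80, 3.76 and 4.49 CPM at 22 °C, and its difference was -1.20 log2 (SE 0.42, 95% interval -2.11 to -0.28). BGL2, a glucanase of systemic acquired resistance, had 1.76, 1.16 and 2.07 CPM at 38 °C, beside 13.5, 10.1 and 30.5 CPM at 22 °C, in bzip17. WT levels of BGL2 were 2.73, 2.83 and 18.23 CPM at 38 °C, beside 11.2, 15.1 and 14.9 CPM at 22 °C. Its replicate 3 of WT at 38 °C, at 18.23 CPM, was above the WT libraries at 22 °C, and the difference was -2.65 log2 (SE 0.94, 95% interval -4.69 to -0.61), or -1.14 without that library.

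The circadian clock list had genes of small p in both directions, 2 above 0 and 2 below 0 of 27 (14.8%, beside 4.32% of all genes). LHY, a morning transcription factor of the clock, had 2.36, 4.63 and 2.90 CPM at 38 °C, beside 4.77, 7.42 and 2.83 CPM at 22 °C, in bzip17. WT levels of LHY were 3.32, 3.71 and 2.81 CPM at 38 °C, beside 16.7, 19.4 and 15.6 CPM at 22 °C. The WT libraries at 22 °C were more than 2-fold above the other 9, and the difference was 1.79 log2 (SE 0.49, 95% interval 0.73 to 2.85), or 1.75 without the rRNA-rich libraries. PRR5, which represses LHY and its partner later in the day, had 22.2, 21.2 and 23.7 CPM at 38 °C, beside 60.7, 63.4 and 51.7 CPM at 22 °C, in bzip17. WT levels of PRR5 were 36.4, 41.0 and 29.0 CPM at 38 °C, beside 42.7, 56.4 and 57.9 CPM at 22 °C, with the bzip17 libraries at 38 °C the lowest and a difference of -0.83 log2 (SE 0.23, 95% interval -1.32 to -0.33). The labels give no hour of sampling, and its part was not tested. PRR5 and BGL2 were named after their values were seen.

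**Figure D5:**
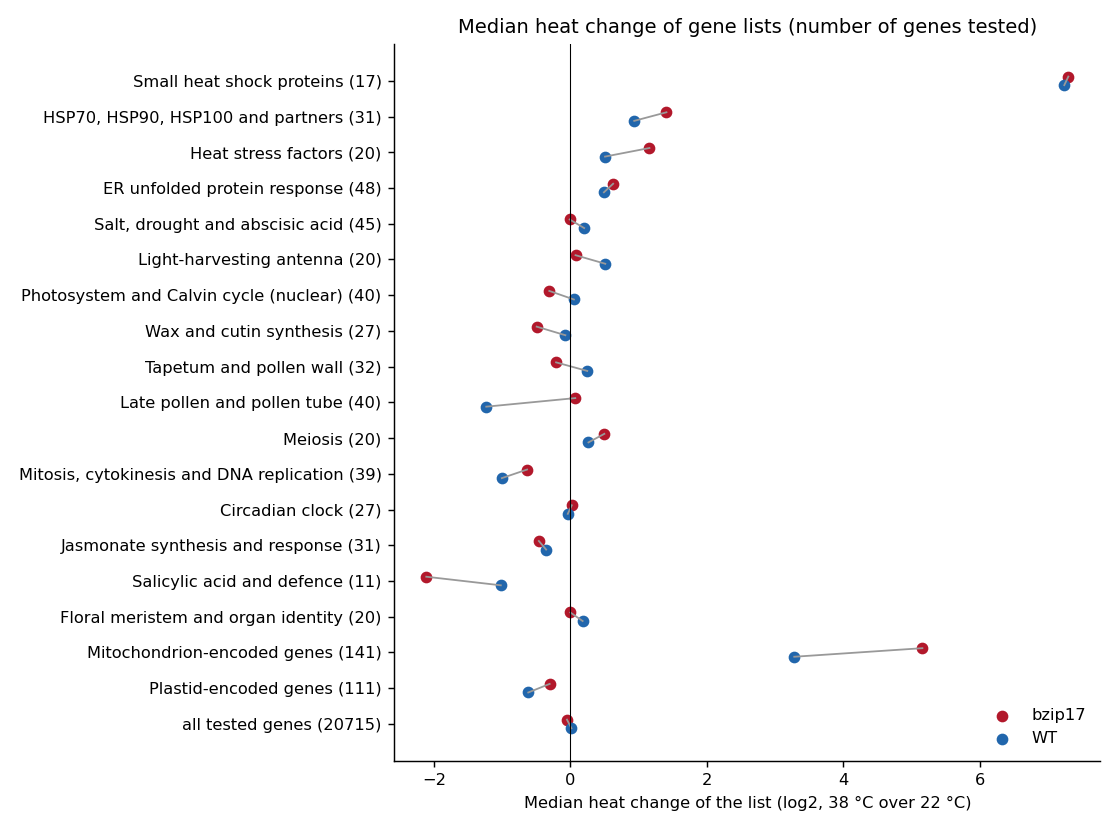
Median log2 heat change (38 °C over 22 °C) of gene lists in bzip17 (red, upper point of each pair) and WT (blue, lower point), with the number of genes tested in brackets. Small heat shock proteins are at 7.30 and 7.24, late pollen genes at 0.07 and -1.23, and mitochondrion-encoded genes at 5.16 and 3.28.

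Mitochondrion-encoded genes gave the largest median difference of all lists, and it changed with the libraries used. Of 141 mitochondrion-encoded genes 132 estimates were above 0 (beside 43.3% of all genes) and 22 had a p under 0.05, all above 0 (15.6%, beside 2.07% of all genes above 0), with a median of 1.72 log2 and heat changes of 5.16 log2 in bzip17 and 3.28 log2 in WT. Without the libraries of over 10% rRNA the median was -0.06, and leaving out only replicate 3 of WT at 22 °C gave 0.83. That library held 64.8% rRNA, and mitochondrion-encoded genes summed to 3922 CPM in it, beside 925, 546 and 105 CPM in bzip17 at 22 °C and 435 and 1138 CPM in the other WT libraries at 22 °C. ATMG00550, with the smallest p, had 0, 1 and 0 counts in bzip17 at 22 °C, so no fold is given. The 111 plastid-encoded genes had a median of 0.31 log2, which became -1.31 when replicate 3 of WT at 22 °C was left out and 1.30 when replicate 1 of bzip17 at 22 °C was.

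Chromosome 2 holds a copy of much of the mitochondrial genome, so reads of the copied genes cannot be told apart from those of the mitochondrion. AT2G07693.1 (chromosome 2, 3341392 to 3342812) had the smallest p above 0, with 45.6, 46.3 and 30.4 CPM at 38 °C, beside 0.216, 0.622 and 0.159 CPM at 22 °C, in bzip17. WT levels of AT2G07693.1 were 34.7, 37.4 and 29.0 CPM at 38 °C, beside 1.50, 1.82 and 1.95 CPM at 22 °C. The 3 bzip17 libraries at 22 °C were below all 3 WT libraries at 22 °C, while the genotypes overlapped at 38 °C. The difference was 2.67 log2 (SE 0.51, 95% interval 1.56 to 3.79), DESeq2 called it (adjusted p = 0.000272), and it was 2.32 without the rRNA-rich libraries. Its coordinates overlap AT2G07692. AT2G07686.1 had 2.37 log2 (SE 0.59, 95% interval 1.08 to 3.66) and AT2G07776 2.56 log2 (SE 0.65, 95% interval 1.14 to 3.98), or 1.48 and 1.40 without the rRNA-rich libraries. Of the 135 tested genes whose IDs start with AT2G07, 130 estimates were above 0, beside 43.3% of all genes. Their median was 1.77 log2, or 0.301 without the rRNA-rich libraries. These genes were taken by ID only and may include genes outside the copy.

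The 1326 tested genes of the list that the study named as dependent on bZIP17 had a median difference of -0.34 log2, with 1198 estimates below 0, and 107 had an unadjusted p under 0.05 below 0 and 1 above 0 (8.14%, beside 4.32% of all genes). Heat raised 6 of them in bzip17 and 267 in WT by the 2-fold rule (beside 6.08% and 6.4% of all genes), and their median heat change was 0.60 log2 in bzip17 and 0.88 log2 in WT. The study chose this list on these libraries, so it is not independent evidence of a direction, and nothing is read from its median. 0 of its genes passed the test of the difference.

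Grouped by promoter element, genes had the following medians, beside -0.05 log2 over all genes. The 15 genes with ERSE-II had a median difference of -0.32 log2, or -0.10 without replicate 3 of bzip17 at 22 °C. Of these 15, 1 had an unadjusted p under 0.05 (6.67%, beside 4.32% of all genes). For 1469 genes with a G-box the median was -0.04, for 3116 with the core -0.05 and for 85 with a heat shock element -0.05 log2. Of noncoding and other lists, 66 small nucleolar RNA genes had a median of -0.42 (-0.067 once replicate 2 of bzip17 at 22 °C was left out) with 0 unadjusted p under 0.05, 143 long noncoding RNA genes -0.20 with 5, 160 transcribed pseudogenes -0.00 with 7, 4 other pseudogenes 0.47 with 0, 11 nucleolar ribonucleoprotein genes -0.12 with 0 and 8 antioxidant enzymes 0.02 with 0.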

How the data were processed

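RNA of pooled buds was sequenced on an Illumina instrument. The authors trimmed reads with cutadapt, aligned them with HISAT2 to TAIR10 and assembled them with StringTie, and deposited 1 table with raw whole-number counts and FPKM per gene for all 12 libraries. Tool versions, strand setting and the method of rRNA removal are not stated in the paper or labels. Counts were analysed as deposited, and FPKM served for the expression filter and 1 alternative, limma-trend on log2(FPKM + 1), a scale that understates changes of low genes.

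Groups came from the labels. The replicates were separate pools, so p values measure the spread between these pools. The 4 group means were fitted in edgeR 4.0.16 (R 4.3.3) with TMM factors, a quasi-likelihood test and Benjamini-Hochberg adjustment over all 20715 genes, after tests on simulated data. DESeq2 1.42.0, limma 3.58.1, other scalings and filters, an rRNA covariate, replicate blocks and left-out libraries were alternatives. Intervals are at 95%.

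The members and gene lists were chosen with earlier results of these data known. Genes were named by rule: the 10 smallest p in each direction when under 10 were called, bZIP17 and its relatives, the RT-qPCR genes, and the smallest p of each list. BIP2, HSFA2, HSP101, AT4G10955, UGE5 and AT1G53880 were, like those marked in the text, named after their values were seen. Promoters were read from the TAIR10.1 RefSeq genome, and 28932 of 33610 genes matched it by ID. The fold changes of empty groups use a floor of 3 counts per library.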

Additional observations from a re-analysis of the deposited data

How the results depend on the processing

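Of the alternatives, scaling by median of ratios, TMM without rRNA and organelle loci, limma-voom, the robust fit, no FPKM filter, an FPKM of 5 or more and the rRNA covariate gave 0 greater and 0 smaller calls, as in the report. Library totals gave 3 greater calls (AT1G53900, AT3G60930.2 and UBQ10) and moved the median of all genes to -0.31 log2. DESeq2 gave 3 greater and 3 smaller, and limma-trend on log2(FPKM + 1) gave 1 greater (AT4G10955), with a median of all genes of -0.334. Without the libraries of over 10% rRNA, which kept only replicate 1 of WT at 22 °C, AT2G45460 was at -3.97 log2, beside -0.13 with all libraries. Its level was 1.12 CPM in that replicate, beside 23.2 and 22.0 CPM in replicates 2 and 3 of the group. Leaving out 1 library gave 0 to 1 greater and 0 to 2 smaller calls, and the cause was not tested.

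The calls without replicate 1 of WT at 22 °C were AT2G07719 above 0 and AT1G53785 and AT4G32208 below 0. In replicates 1, 2 and 3 of that group AT2G07719 had 12, 202 and 144 counts. AT1G53785 had 400, 0 and 0 there, and AT4G32208 had 583, 7 and 3. Without replicate 3 of that group HEN1 was called below 0, without replicate 2 of WT at 38 °C AT1G53900 above 0, without replicate 2 of bzip17 at 22 °C AT2G07693.1 above 0, and without replicate 1 of bzip17 at 38 °C TSD2 and AT2G46550 below 0. HEN1 had 4.83, 6.42 and 28.0 CPM in WT at 22 °C. In bzip17 at 38 °C TSD2 had 56.7, 19.7 and 15.3 CPM, and AT2G46550 had 1882, 11 and 5 counts. The library left out thus stood apart from the rest of its group for these genes.

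CNX1 turned to -0.281 with library totals, -0.328 with FPKM and -0.141 without the rRNA-rich libraries, SDF2 to -0.085, -0.089 and -0.138, and SHD to -0.221, -0.30 and -0.087. The median of all genes was itself -0.31 log2 with library totals and -0.334 with FPKM, beside -0.055 in the report. Signs under those settings therefore carry a shift shared by genes in general. With 1 library left out CNX1 ran from -0.092 to 0.147 and SHD from -0.013 to 0.176. BZIP60 was 0.091 without the rRNA-rich libraries and ILL5 was 0.106 with FPKM. BIP1 was -0.224 with library totals and -0.314 with FPKM. BIP2 was 0.017 with median of ratios and with DESeq2, 0.012 with TMM without rRNA and organelle loci, 0.022 with limma-voom and 0.016 with the replicate block within genotype. Without the rRNA-rich libraries AT4G32208 was 0.199 and AT2G07719 -1.534. With 1 library left out BIP1 ran from -0.102 to 0.207, BIP2 from -0.11 to 0.104, HSFA2 from -0.07 to 2.082, HSP101 from -0.295 to 1.369, AT1G53880 from -0.352 to 0.081, AT2G45460 from -0.584 to 0.43 and AT3G42658.1 from -0.819 to 0.228. Of the named genes' values under all alternatives, 1901 kept their direction and side of the threshold, 43 reversed and 19 passed it. Without the rRNA-rich libraries NAC019 was at -0.71 log2, Lhca6 at -0.62, PETC at -0.52 and CAB3 at -0.66. RCA was at -0.775, KCS1 at -0.46, JAZ10 at -0.54 and PBS3 at -1.23. AUR2 was at 0.59, CPK34 at 1.66, HSFB2A at 1.30 and BZIP17 at 0.59. BZIP28 was at 0.57, NIA1 at -1.23, AT2G07686.1 at 1.48 and AT2G07776 at 1.40. No p is read from that fit, because it kept only replicate 1 of WT at 22 °C.

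With a replicate block across all libraries there were 0 greater and 0 smaller calls and 875 genes at an unadjusted p under 0.05, and with the block within genotype 0, 0 and 1060. Same-numbered libraries did not deviate together throughout (r from -0.032 to 0.123 in WT and 0.158 to 0.202 in bzip17). Every bzip17 library correlated best with its own number, and not every WT library did, so the numbers were not taken to pair the samples.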
